A study of Rattus norvegicus with 12 samples.

Results

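Interneuron markers and cortical neuropeptides were followed in rat brain through 9 genes: Gad1, Gad2, Slc32a1, Pvalb, Sst, Npy, Vip, Cck and Crh. They were chosen by name from a table of read counts with 17337 gene entries. All 9 were found, and all 9 were among the 12850 genes that passed a filter on low counts and were tested. The 12 libraries came from male Sprague-Dawley rats of postnatal day 60, in 4 groups of 3. In 3 of these groups the common bile duct had been tied off for 4 weeks (bile duct ligation, BDL), a surgical model of cirrhosis and of the brain disorder that follows it. The AAV-VEGFC group was ligated and was given an AAV (adeno-associated virus) for expression of VEGF-C, which drives the growth of lymphatic vessels. The AAV-GFP group was ligated and was given the same kind of virus for expression of green fluorescent protein. The BDL group was ligated and is given no vector in the labels, and the sham group served as control. Both vectors were injected in 20 µl into the cisterna magna, the fluid-filled cistern below the cerebellum, and no promoter or target cell is given for them. Ligation was shared by the AAV-VEGFC, AAV-GFP and BDL groups, and injection by both AAV groups alone, so the vector, the injection and any difference in handling cannot be told apart in comparisons of an AAV group with BDL.

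Inhibitory neurons make GABA from glutamate with the decarboxylases GAD67 (Gad1) and GAD65 (Gad2) and load it into vesicles with the transporter VGAT (Slc32a1). In the cortex and hippocampus they are local interneurons, sorted into classes by what else they make: fast-spiking cells hold the calcium-binding protein parvalbumin, and other classes release somatostatin, neuropeptide Y, vasoactive intestinal peptide or cholecystokinin. Gad1, Gad2 and Slc32a1 are not limited to interneurons, since the projection neurons of the striatum also release GABA, and Cck is also made by many excitatory cortical neurons. Peptide precursors are cut in dense-core vesicles by convertases, and the released peptides act on G-protein-coupled receptors.

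Transcription of several neuropeptide genes responds to cyclic AMP through the factor CREB, which binds the cyclic AMP response element (CRE), so the promoters of Vip, a member that rose in a comparison below, and of Sst, a textbook CREB target, are shown. They run 5′ to 3′ from 250 bases before to 50 after the annotated start in RefSeq's GRCr8 assembly, with the CRE core in capitals. Vip lies at chr1:44470230-44470529 and Sst at chr11:90461296-90461595, both on the plus strand.
Vip: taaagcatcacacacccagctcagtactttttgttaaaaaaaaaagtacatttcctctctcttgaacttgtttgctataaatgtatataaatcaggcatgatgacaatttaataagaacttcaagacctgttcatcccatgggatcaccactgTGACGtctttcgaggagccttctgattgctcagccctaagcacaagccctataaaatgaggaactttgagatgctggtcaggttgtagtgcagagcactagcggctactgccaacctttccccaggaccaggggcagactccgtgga
Sst: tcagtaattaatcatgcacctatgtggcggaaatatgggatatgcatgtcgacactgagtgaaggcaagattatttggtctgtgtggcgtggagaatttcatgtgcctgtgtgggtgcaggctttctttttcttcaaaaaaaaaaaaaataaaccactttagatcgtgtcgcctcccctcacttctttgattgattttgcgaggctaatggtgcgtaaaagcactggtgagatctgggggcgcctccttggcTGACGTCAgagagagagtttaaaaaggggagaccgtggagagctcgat
Of the 9 genes, 7 were matched to a promoter (not Cck and Crh). The core TGACG, searched on both strands, was found in 4 of these 7 (Slc32a1, Sst, Pvalb and Vip) and in 21.2% of 33469 rat promoters of the same length. The full palindrome TGACGTCA, which holds the core on each strand, was found in 1 of the 7, Sst, and in 1.83% of the promoters. A match of letters is a description and says nothing of binding in these brains.

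Libraries held 40296297 to 51669067 counts. Levels below are counts scaled to library size with TMM factors (CPM), and libraries are listed in the order 1, 2, 3 of their titles. Fold changes are log2 ± SE from an edgeR quasi-likelihood model of all 12 libraries, with p-values adjusted over all tested genes (Benjamini-Hochberg), and called means an adjusted p under 0.05. The series names middle brain as the tissue, a label that dopamine markers of the midbrain did not match. Th, the enzyme of dopamine neurons, lay between 0.652 and 1.70 CPM, and Slc6a3, their dopamine transporter, at or below 0.0717 CPM. Among other thalamus and midbrain markers, Slc17a6 (21.1 to 54.4 CPM), Prkcd (15.0 to 38.5 CPM) and Tcf7l2 (9.38 to 13.7 CPM) were present in every library. Gata3 lay at or below 0.104 CPM, and Sox14 and Pax7 at 0 CPM. Slc17a7, the glutamate transporter of cortical synaptic vesicles, reached 1249 to 2029 CPM, and Lhx6, a transcription factor of parvalbumin and somatostatin interneurons, 14.3 to 22.2 CPM in every library. In these bulk samples, fewer cells of a type and less RNA per cell cannot be told apart. Several libraries stood apart before any comparison was made. Sham 2 held 245 CPM of Ttr (choroid plexus), AAV-GFP 1 held 47.8 CPM of Oxt (hypothalamus), and AAV-VEGFC 3 held 27.8 CPM of Gh1 (pituitary). AAV-VEGFC 1 held the highest summed level of 6 oligodendrocyte markers (18780 CPM, against 11094 to 14655 CPM in all other libraries) and the lowest of 8 pan-neuronal markers (5810 CPM, against 6646 to 7793 CPM).

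None of the 3 genes of GABA synthesis and packaging was called in any of the 4 comparisons. Gad1 and Gad2 spread most inside the AAV-VEGFC group, and Slc32a1 spread almost alike in both AAV groups (SD 29.7 CPM in AAV-VEGFC and 31.8 CPM in AAV-GFP, n = 3 each). Gad1 had 229, 393 and 448 CPM in AAV-VEGFC brains, 417, 328 and 354 CPM in AAV-GFP brains, 352, 311 and 360 CPM in BDL brains, and 382, 412 and 379 CPM in sham brains. The lowest and the highest of all 12 values were both AAV-VEGFC libraries, while every BDL value lay below every sham value. In BDL against sham the Gad1 difference was -0.20 ± 0.19 (adjusted p = 1), about the size of its error. It was 0.07 ± 0.19 in AAV-VEGFC against BDL, -0.04 ± 0.19 in AAV-VEGFC against AAV-GFP and 0.10 ± 0.19 in AAV-GFP against BDL. Slc32a1 had 68.8, 105 and 128 CPM in AAV-VEGFC brains, 144, 84.2 and 94.0 CPM in AAV-GFP brains, 94.7, 80.2 and 103 CPM in BDL brains, and 92.9, 112 and 90.6 CPM in sham brains. In each comparison the groups overlapped, with differences of 0.12 ± 0.23 for AAV-VEGFC against BDL, -0.09 ± 0.23 for AAV-VEGFC against AAV-GFP, 0.21 ± 0.23 for AAV-GFP against BDL and -0.09 ± 0.23 for BDL against sham. Gad2 ranged from 75.5 to 155 CPM over the 12 libraries and also overlapped in every comparison, with AAV-VEGFC 1 the lowest library. Its differences were -0.21 ± 0.21 for AAV-VEGFC against BDL, -0.10 ± 0.21 for AAV-VEGFC against AAV-GFP, -0.11 ± 0.21 for AAV-GFP against BDL and -0.10 ± 0.21 for BDL against sham.

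**Figure D1:**
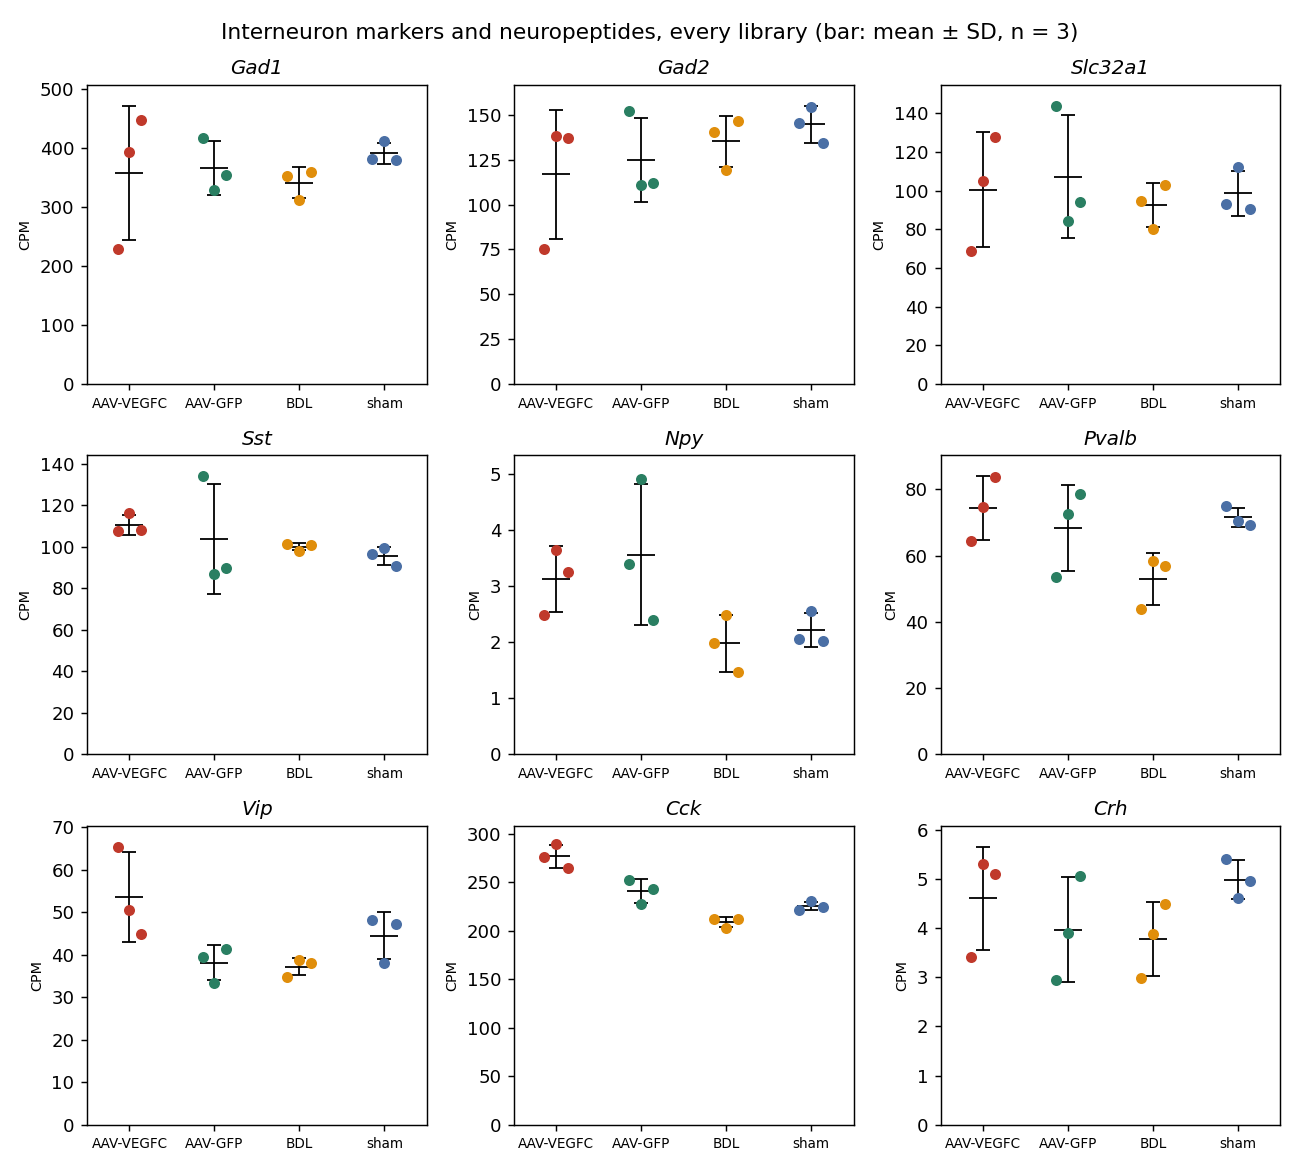
Level of each of the 9 genes in every library (CPM, linear axes, one panel per gene), by group from AAV-VEGFC at the left to sham at the right, with the mean and SD of 3 libraries. Cck and Vip lie higher in all 3 AAV-VEGFC libraries than in any AAV-GFP or BDL library, while Gad1, Gad2 and Slc32a1 spread most within the AAV groups.

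The order of the GABA genes within groups went with the content of striatal transcripts. The summed level of the 11 markers of striatal projection neurons that no other list holds, of which Isl1 was at 0 in AAV-GFP 2 and in AAV-VEGFC 1 and 2, was 697, 887 and 1765 CPM in AAV-VEGFC libraries, 1349, 408 and 759 CPM in AAV-GFP libraries, 798, 538 and 858 CPM in BDL libraries, and 720, 1111 and 563 CPM in sham libraries. In all 4 groups the library with the highest sum was also the highest in Gad1 and Slc32a1, and the library with the lowest sum was the lowest in both. Gad2 shared the highest library in 3 of 4 groups and the lowest in 4 of 4, and Sst, which is not a gene of GABA synthesis or packaging, the highest in 2 and the lowest in 4. Cck shared 2 and 2, Npy and Pvalb 1 and 2 each, Crh 1 and 1, and Vip 0 and 1. Between groups the order could differ. AAV-VEGFC 1, the lowest of the 12 libraries in Gad1, Gad2 and Slc32a1, had a striatal sum of 697 CPM. That lay above the sums of sham 3, BDL 2 and AAV-GFP 2 (563, 538 and 408 CPM). How often other tested genes shared these libraries was not computed. The libraries lowest in Gad1 and Slc32a1 in the AAV-VEGFC and BDL groups, AAV-VEGFC 1 and BDL 2, were also lowest of their group in the pan-neuronal sum (5810 and 6646 CPM). In the AAV-GFP and sham groups it was the libraries highest in both genes, AAV-GFP 1 and sham 2, that had the lowest pan-neuronal sum (6749 and 7081 CPM). With the striatal level as a covariate, a choice made with the data in view, the AAV-VEGFC against BDL difference of Gad1 was -0.04 in place of 0.07, and that of Slc32a1 was -0.03 in place of 0.12. Neither was called with or without it. The part of dissection in these differences was not tested beyond this covariate.

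**Figure D2:**
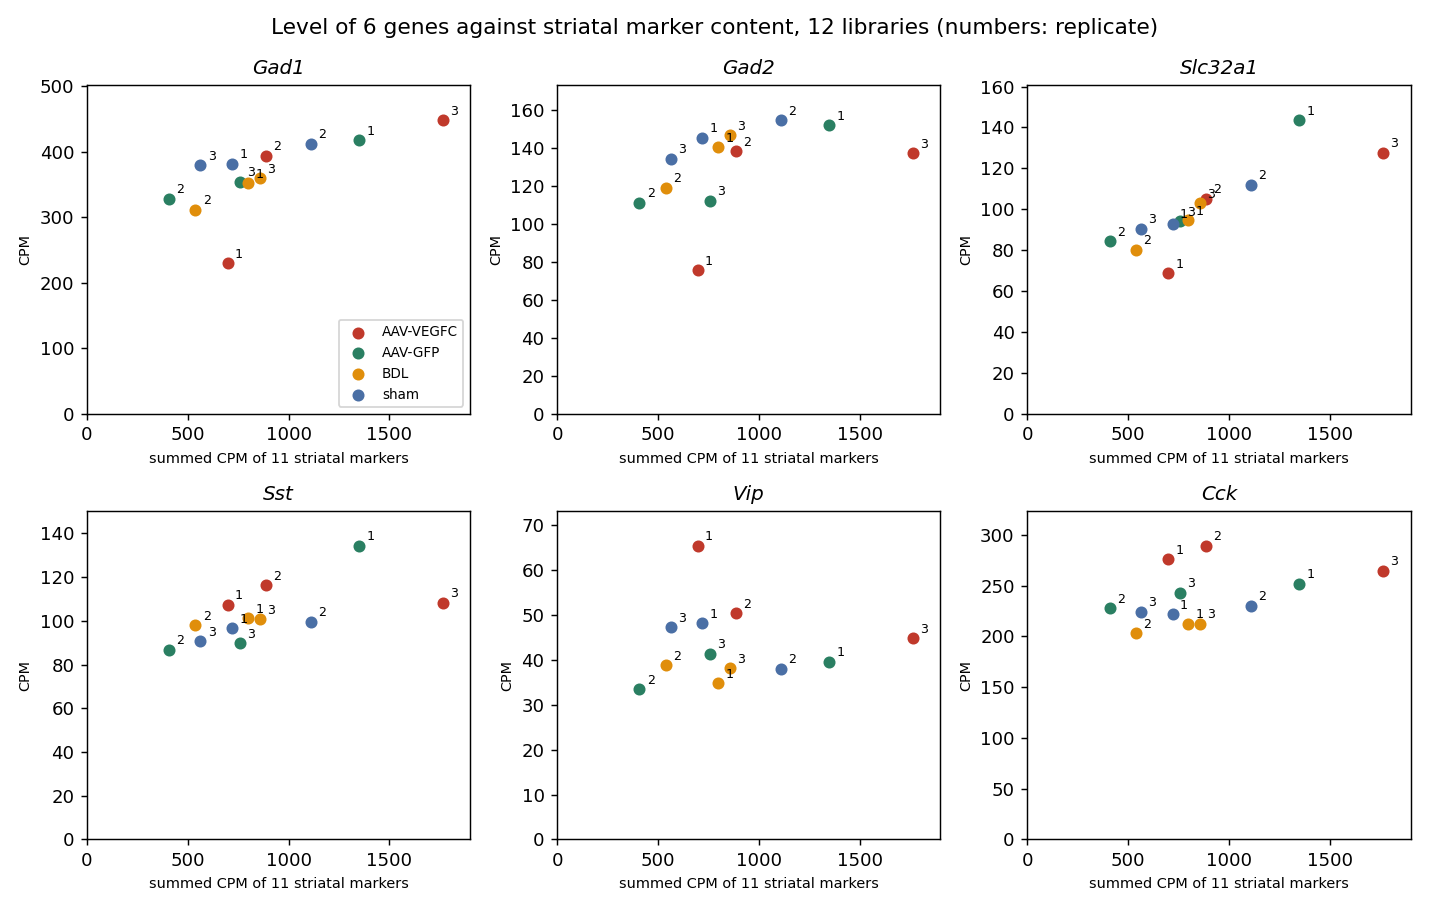
Level of Gad1, Slc32a1 and other members (CPM) against the summed level of 11 striatal markers (CPM) in the 12 libraries, coloured by group. Within each group the library with the largest striatal sum has the highest Gad1 and Slc32a1.

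Cck and Vip were the 2 members that rose, and both did so in AAV-VEGFC against BDL. Cck, the cholecystokinin precursor, had 276, 289 and 265 CPM in AAV-VEGFC brains, 252, 228 and 243 CPM in AAV-GFP brains, 213, 203 and 212 CPM in BDL brains, and 222, 230 and 224 CPM in sham brains. The 3 AAV-VEGFC values lay above all 9 others, and the 3 BDL values lay below all 9 others. In AAV-VEGFC against BDL it was 1.32-fold higher (0.40 ± 0.06, adjusted p = 0.00273). In AAV-VEGFC against AAV-GFP it was 0.20 ± 0.06 (adjusted p = 0.948) and in AAV-GFP against BDL 0.20 ± 0.06 (adjusted p = 0.0928), neither called, although neither pair overlapped. In BDL against sham it was -0.11 ± 0.06 (adjusted p = 0.956). By group mean the order was AAV-VEGFC, AAV-GFP, sham and BDL from high to low, and of neighbours in it, AAV-GFP and sham overlapped.

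Vip, which marks interneurons that mainly inhibit other interneurons, had 65.3, 50.4 and 44.8 CPM in AAV-VEGFC brains, 39.6, 33.4 and 41.3 CPM in AAV-GFP brains, 34.8, 38.8 and 38.1 CPM in BDL brains, and 48.1, 38.0 and 47.3 CPM in sham brains. AAV-VEGFC 1 was the highest of the 12, and the AAV-VEGFC group overlapped with sham but with neither AAV-GFP nor BDL. In AAV-VEGFC against BDL Vip was 1.44-fold higher (0.52 ± 0.14, adjusted p = 0.0404), close to the threshold. In AAV-VEGFC against AAV-GFP it was 0.49 ± 0.14 (adjusted p = 0.948), in AAV-GFP against BDL 0.03 ± 0.14 (adjusted p = 0.92), and in BDL against sham -0.26 ± 0.14 (adjusted p = 0.934). The Vip call was also lost with voom (adjusted p = 0.0584) and when AAV-VEGFC 1 (0.35, adjusted p = 0.0611) was left out, and when BDL 1, 2 or 3 was (adjusted p = 0.144, 0.0889 and 0.102). Cck stayed past the threshold without any single library (highest adjusted p = 0.0228). Both calls were lost when the AAV-VEGFC and BDL libraries were fitted alone (Cck adjusted p = 0.0656, Vip adjusted p = 0.129). AAV-VEGFC 1, the library with the most oligodendrocyte and the least pan-neuronal transcript, was the highest for Vip and the middle of its group for Cck; the part of tissue makeup in these 2 results was not tested. With the striatal covariate both remained called, Cck at 0.39 (adjusted p = 0.0046) and Vip at 0.55 (adjusted p = 0.037).

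Pvalb, parvalbumin, was lowest in the BDL group by mean and was called in no comparison. It had 64.6, 74.8 and 83.7 CPM in AAV-VEGFC brains, 53.6, 72.7 and 78.6 CPM in AAV-GFP brains, 44.0, 58.3 and 56.7 CPM in BDL brains, and 74.9, 70.3 and 69.3 CPM in sham brains. The BDL libraries lay below every AAV-VEGFC and every sham library, and overlapped with AAV-GFP through AAV-GFP 1. The differences were 0.49 ± 0.15 for AAV-VEGFC against BDL (adjusted p = 0.0618), 0.37 ± 0.15 for AAV-GFP against BDL (adjusted p = 0.193) and -0.43 ± 0.15 for BDL against sham (unadjusted p = 0.0149, adjusted p = 0.671). The BDL libraries are in all 3, so these values are not separate evidence of one another. In AAV-VEGFC against AAV-GFP it was 0.12 ± 0.15 (adjusted p = 0.956). Other tools called Pvalb in AAV-VEGFC against BDL: DESeq2 at 0.50 (adjusted p = 0.0186) and voom at 0.58 (adjusted p = 0.0106). Without AAV-VEGFC 1, where the Vip call was lost, edgeR also called Pvalb there (0.58, adjusted p = 0.0279).

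Sst, somatostatin, which many dendrite-targeting interneurons release, had 107, 116 and 108 CPM in AAV-VEGFC brains, 134, 86.9 and 89.7 CPM in AAV-GFP brains, 101, 97.9 and 101 CPM in BDL brains, and 96.5, 99.6 and 90.8 CPM in sham brains. AAV-GFP 1 was the highest library, and it lay apart from the other two of its group. The 3 AAV-VEGFC values lay above all 3 BDL values, but the difference was 0.15 ± 0.14 (adjusted p = 0.521). Sst was at 0.09 ± 0.14 in AAV-VEGFC against AAV-GFP, 0.05 ± 0.14 in AAV-GFP against BDL and 0.06 ± 0.14 in BDL against sham.

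Npy, neuropeptide Y, rested on 73 to 222 counts per library. It had 2.50, 3.65 and 3.25 CPM in AAV-VEGFC brains, 3.40, 4.91 and 2.39 CPM in AAV-GFP brains, 1.99, 2.49 and 1.47 CPM in BDL brains, and 2.05, 2.57 and 2.03 CPM in sham brains. AAV-VEGFC was just above BDL in every library, with 2.50 CPM against 2.49 CPM at the closest. The differences were 0.66 ± 0.29 for AAV-VEGFC against BDL (adjusted p = 0.152) and 0.85 ± 0.29 for AAV-GFP against BDL (adjusted p = 0.115), the largest fold change among the 9 genes and not called. They were -0.18 ± 0.28 for AAV-VEGFC against AAV-GFP and -0.16 ± 0.29 for BDL against sham. Crh, the corticotropin-releasing hormone of stress signalling, rested on 135 to 276 counts. It had 3.41, 5.31 and 5.10 CPM in AAV-VEGFC brains, 2.94, 3.89 and 5.06 CPM in AAV-GFP brains, 2.99, 3.87 and 4.48 CPM in BDL brains, and 5.39, 4.61 and 4.95 CPM in sham brains. Every BDL value lay below every sham value, with a difference of -0.40 ± 0.24 (adjusted p = 0.954). Crh was at 0.29 ± 0.24 in AAV-VEGFC against BDL, 0.22 ± 0.24 in AAV-VEGFC against AAV-GFP and 0.07 ± 0.24 in AAV-GFP against BDL, and those groups overlapped.

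BDL against sham asks what ligation changed, and 0 of the 9 genes were called by edgeR, where 0.109% of all tested genes were. Only Pvalb, 1 of 9, had an unadjusted p under 0.05, where 5.9% of tested genes did. DESeq2 called 0 of the 9, where it called 103 of 14497 genes. With limma's voom and quality weights 1 was called, Pvalb (adjusted p = 0.0449), where 347 of 12850 genes were. In 4 of 9 genes (Gad1, Pvalb, Cck and Crh) the groups did not overlap with BDL lower, where 12.4% of all tested genes parted in that direction and 25.0% in either. The median difference of the 9 was -0.16, against 0.01 over all tested genes. AAV-GFP against BDL asks what a control vector changed. Here 0 of 9 were called by edgeR, where 6.19% of tested genes were, and 3 (Npy, Pvalb and Cck) had an unadjusted p under 0.05, where 20.7% did. DESeq2 called 1 (Cck), where it called 1435 of 14497 genes. With voom 2 were called (Pvalb and Cck), where 4687 of 12850 genes were. The groups did not overlap in 1 gene, Cck, where 18.2% of tested genes were higher without overlap. The median was 0.10, against 0.01 over all tested genes.

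AAV-VEGFC against AAV-GFP, which sets the growth factor against its vector control, called 0 of the 9 by edgeR, where 0.00778% of tested genes were called. Vip and Cck had an unadjusted p under 0.05, where 4.37% of genes did, and were the 2 that were higher without overlap, where 3.29% were. DESeq2 and voom each called 0 of the 9, where they called 10 of 14497 and 1 of 12850 genes. The median was 0.09, against 0.01 over all tested genes. AAV-VEGFC against BDL called 2 of the 9, both higher, where 9.93% of tested genes were called and 2.91% were called higher. Unadjusted p was under 0.05 in 4, where it was in 29.2% of genes. The groups did not overlap with AAV-VEGFC higher in 5 (Sst, Npy, Pvalb, Vip and Cck), where 14.6% of tested genes were, and the median of the 9 was 0.29, against 0.00 over all tested genes. Of the 4 comparisons 3 share the BDL libraries, 2 the AAV-GFP libraries and 2 the AAV-VEGFC libraries, on which the values of Vip and Cck against AAV-GFP and against BDL both rest, so their values stand side by side without a test between them. DESeq2 called 3 of the 9 in AAV-VEGFC against BDL (Pvalb, Vip and Cck), where it called 2315 of 14497 genes. With voom 2 were called there (Pvalb and Cck), where 2488 of 12850 genes were.

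The counts moved without AAV-VEGFC 1, AAV-GFP 1 and sham 2, a set taken from earlier results of these data that brought many more calls over all genes. AAV-VEGFC 3, which also stood apart, is not in that set; leaving it out alone called 2 of the 9 in AAV-VEGFC against BDL (Vip at 0.64, adjusted p = 0.0233, and Cck at 0.43, adjusted p = 0.00534) and 0 in AAV-VEGFC against AAV-GFP. Without the set of 3 libraries 5 of the 9 were called in AAV-VEGFC against BDL, all higher (Gad1, Sst, Pvalb, Vip and Cck), where 3123 of 12884 tested genes were called. Cck was then 0.41 (adjusted p = 0.000988), Vip 0.36 (adjusted p = 0.0244) and Pvalb 0.58 (adjusted p = 0.00676). In AAV-VEGFC against AAV-GFP 3 were called, all higher (Gad1, Sst and Cck), where 1193 genes were. In AAV-GFP against BDL 4 were called, Pvalb and Cck higher and Gad2 and Sst lower, where 3646 genes were. In BDL against sham 0 were called, where 209 genes were, with Pvalb at -0.44 (adjusted p = 0.0825). In 3 of the 4 groups this leaves 2 libraries, and the spread is shared across groups.

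**Figure D3:**
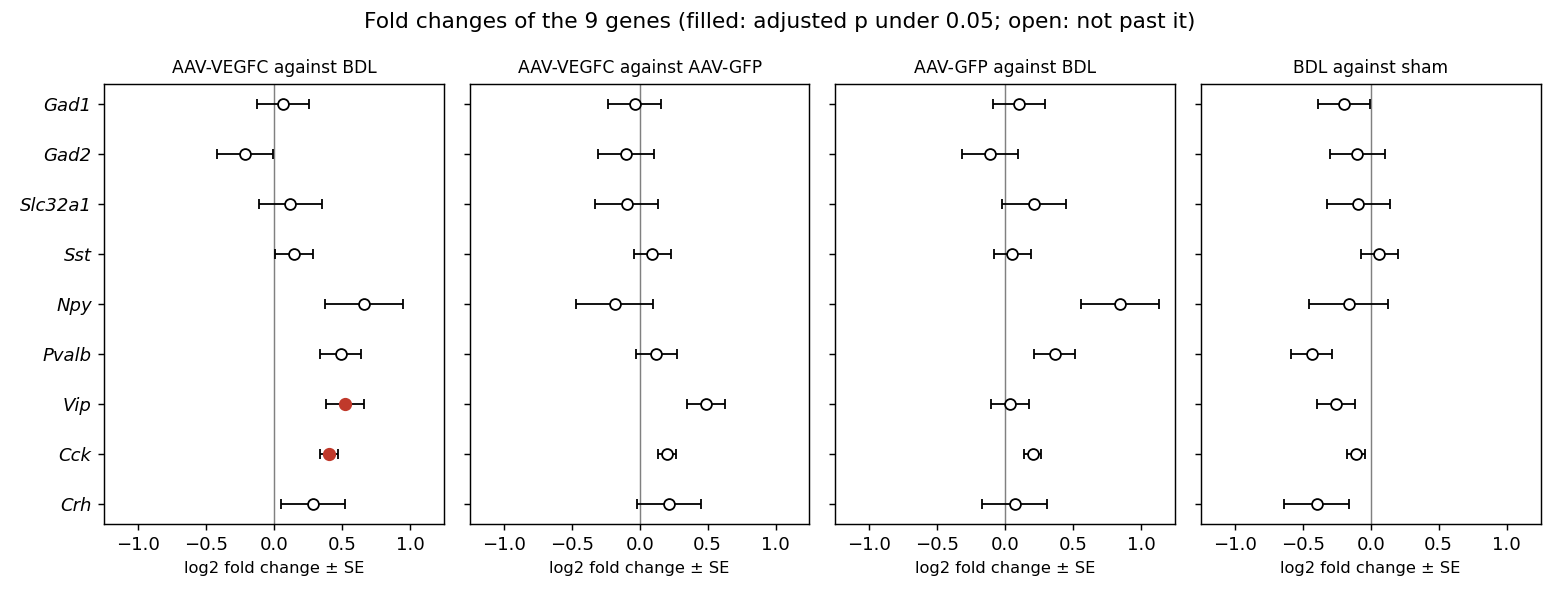
Log2 fold change ± SE of the 9 genes in each of the 4 comparisons, with genes past an adjusted p of 0.05 marked. Cck and Vip in AAV-VEGFC against BDL are the 2 that are marked, and all BDL against sham values other than that of Sst lie below 0.

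The level of each peptide or calcium-binding gene was next set per GABA marker, as its log2 CPM minus the mean log2 CPM of Gad1, Gad2 and Slc32a1 in the same library, which needs no scaling between libraries. The ratio separated groups in 2 of the 24 tests, 1 of 6 in AAV-VEGFC against BDL, where the same ratio separated the groups in 8.44% of all tested genes, and 1 of 6 in BDL against sham, where it did in 18.2%. It was 0 of 6 in AAV-VEGFC against AAV-GFP, where 2.44% of genes separated, and 0 of 6 in AAV-GFP against BDL, where 14.9% did. Pvalb per GABA marker was -1.07 ± 0.31 in AAV-VEGFC and -1.62 ± 0.31 in BDL (SD, n = 3 each), a difference of 0.55 (two-sided exact permutation p = 0.1). Sst per GABA marker was -0.69 ± 0.13 in BDL and -0.89 ± 0.06 in sham (SD, n = 3 each), a difference of 0.19 (two-sided exact permutation p = 0.1). With 3 libraries against 3 the smallest possible p is 0.1, so no ratio could pass 0.05. The ratios of the other 22 tests gave p from 0.2 to 1. AAV-VEGFC 1, whose GABA markers were the lowest of the 12 libraries, stood apart in the ratios. Its Sst ratio was 0.02, against -0.62 and -0.88 in AAV-VEGFC 2 and 3.

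**Figure D4:**
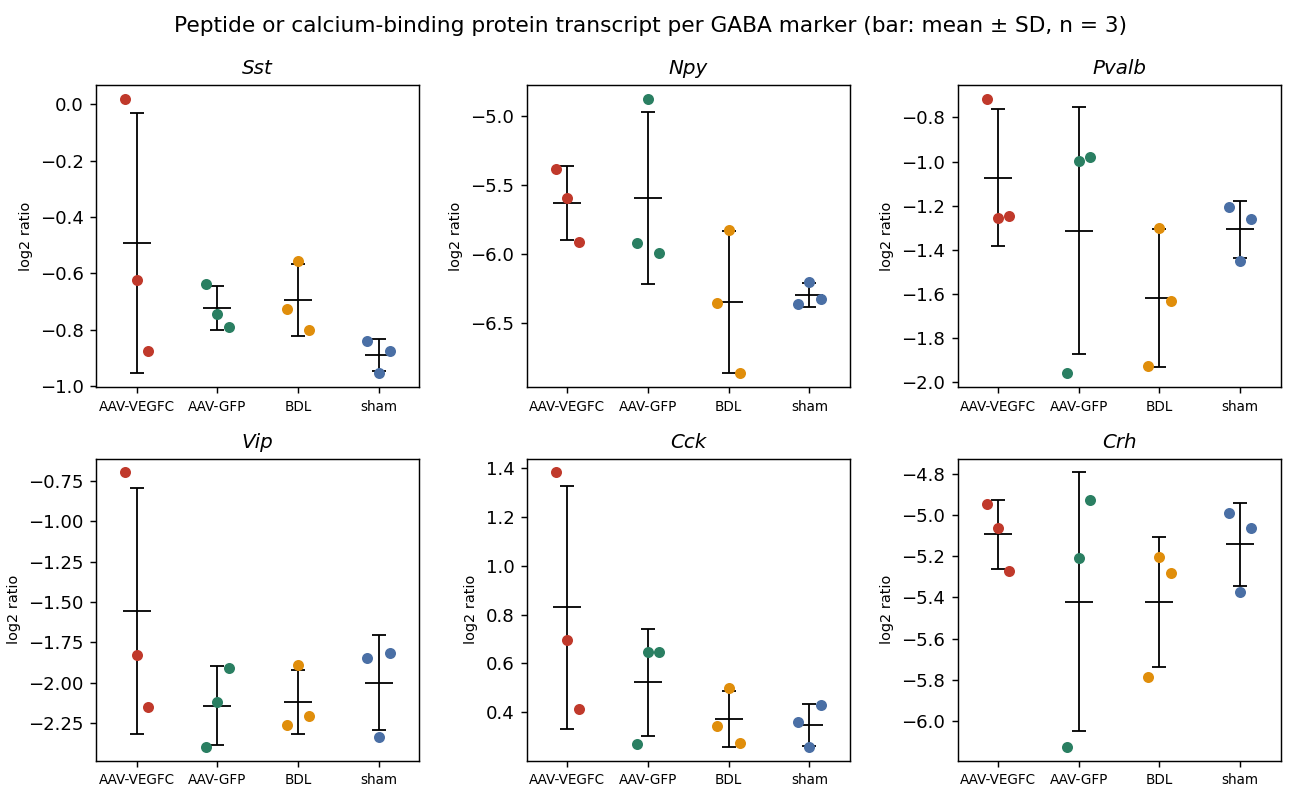
Log2 ratio of 6 peptide or calcium-binding genes to the mean of Gad1, Gad2 and Slc32a1, per library (points), with the mean ± SD of 3 libraries (bars). AAV-VEGFC 1 is the highest AAV-VEGFC point for all 6 genes, reaching 0.02 for Sst.

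The genes that act around the members were described next. Of 15 tested transcription factors of forebrain GABA neurons, 0 were called by edgeR in any of the 4 comparisons, with at most 2 at an unadjusted p under 0.05, in AAV-VEGFC against BDL, where 29.2% of tested genes were. DESeq2 also called 0, and voom called 3 lower in AAV-GFP against BDL (Dlx2, Nr2f2 and Sox6) and 1 lower in AAV-VEGFC against BDL (Prox1). Of all 12850 tested genes voom called 2492 and 1482 lower in these 2 comparisons. Prox1, a factor of Vip-type interneurons, dentate granule cells and lymphatic vessels, was 12.4 ± 6.12 CPM in AAV-VEGFC and 23.7 ± 1.48 CPM in BDL (-0.94 ± 0.38, adjusted p = 0.13). Of 14 tested peptide receptors 0 were called by edgeR or DESeq2 in any comparison, with 3 at an unadjusted p under 0.05 in AAV-VEGFC against AAV-GFP, where 4.37% of tested genes were, and 2 in each of the other comparisons, where 5.9% (BDL against sham), 20.7% (AAV-GFP against BDL) and 29.2% (AAV-VEGFC against BDL) were. voom called 2 lower in BDL against sham (Sstr2 and Vipr1), 4 lower in AAV-GFP against BDL and 1 higher in AAV-VEGFC against BDL (Crhr1). Of all 12850 tested genes it called 230 lower, 2492 lower and 1006 higher there, in that order. Sstr2, a somatostatin receptor, had 17.8, 18.9 and 20.8 CPM in BDL brains, against 31.2, 30.2 and 28.7 CPM in sham brains. The groups did not overlap, and the difference was -0.65 ± 0.20 (adjusted p = 0.505). Sstr4, another somatostatin receptor, lay between 10.2 and 12.1 CPM in AAV-VEGFC and had a median of 16.5 CPM and a highest value of 18.4 CPM in BDL (-0.59 ± 0.22, adjusted p = 0.102). Among 8 activity-regulated secreted genes, Nptx2, a pentraxin that gathers AMPA receptors at excitatory synapses onto parvalbumin cells, had 62.9, 66.0 and 67.3 CPM in BDL brains, against 88.3, 86.4 and 90.2 CPM in sham brains (-0.43 ± 0.09, adjusted p = 0.162). In that comparison edgeR called 0 of the 8, DESeq2 called 1 lower (Nptx2) and voom 2 lower (Nptx2 and Inhba). Of all tested genes DESeq2 called 51 of 14497 lower there and voom 230 of 12850. Lamp5, a marker of another interneuron class, had 151, 176 and 174 CPM in BDL brains, against 246, 218 and 224 CPM in sham brains (-0.46 ± 0.19, adjusted p = 0.8), and voom called it lower.

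The peptide-processing genes gave 2 called rises in AAV-VEGFC against BDL, of 16 tested, where 2.91% of all tested genes were called higher. Scg5, the 7B2 chaperone of prohormone convertase 2, had 679, 522 and 526 CPM in AAV-VEGFC brains, against 419, 418 and 413 CPM in BDL brains (0.47 ± 0.09, adjusted p = 0.00936). Scg5 had 511, 499 and 519 CPM in AAV-GFP brains, also above every BDL value, with a difference of 0.29 in AAV-GFP against BDL that edgeR did not call (adjusted p = 0.0939) and that DESeq2 (adjusted p = 0.0265) and voom (adjusted p = 9.86e-05) did. Pcsk1n, the proSAAS inhibitor of prohormone convertase 1, had 15.1, 15.7 and 17.4 CPM in AAV-VEGFC brains, against 10.1, 12.4 and 8.82 CPM in BDL brains (0.62 ± 0.14, adjusted p = 0.0179). Pcsk1n also rose in AAV-GFP against BDL, with 17.1, 13.7 and 15.2 CPM in AAV-GFP brains (0.55 ± 0.14, adjusted p = 0.0405), a comparison that shares the BDL libraries. In BDL against sham 11 of these 16 genes were lower without overlap, where 12.4% of all tested genes were. Of the 16, 0 were called by edgeR or DESeq2, and 2 had an unadjusted p under 0.05, where 5.9% of tested genes did. With voom 2 were called lower (Pcsk1 and Vgf), where 230 of 12850 genes were. Pcsk1, the convertase itself, was 44.7 ± 2.68 CPM in BDL and 58.6 ± 3.18 CPM in sham (-0.39 ± 0.14, adjusted p = 0.71). The median over the 16 was -0.10, against 0.01 over all tested genes. In the same libraries the summed level of 8 pan-neuronal markers was 6646 to 6836 CPM in BDL and 7081 to 7650 CPM in sham, also without overlap, and its part in these counts was not tested.

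Among 28 other interneuron markers, 1 was called in AAV-VEGFC against BDL, where 9.93% of all tested genes were, and 0 in the other comparisons. DESeq2 called 4 of the 28 there (2 higher and 2 lower), where it called 2315 of 14497 genes, and 0 elsewhere. voom called 5 there (4 higher and 1 lower), 10 in AAV-GFP against BDL (2 higher and 8 lower), 3 lower in BDL against sham and 0 in AAV-VEGFC against AAV-GFP. Over all 12850 tested genes voom called 2488, 4687, 347 and 1 in these comparisons, in that order. The gene called by edgeR, Cox6a2, a cytochrome oxidase subunit found in parvalbumin cells in mouse cortex, had 3.33, 5.31 and 4.81 CPM in AAV-VEGFC brains, against 2.21, 2.64 and 2.63 CPM in BDL brains (0.85 ± 0.20, adjusted p = 0.0245). All 3 AAV-VEGFC values lay above BDL, and so did the 3 AAV-GFP values (3.42, 3.45 and 3.92 CPM). The Cox6a2 difference in AAV-GFP against BDL was 0.53 ± 0.20. It was not called by edgeR (adjusted p = 0.167) or DESeq2 (adjusted p = 0.111) and was called by voom (adjusted p = 0.0102). Of 11 tested genes of GABA transport and breakdown, 1 was called in AAV-VEGFC against BDL, about the 9.93% of all tested genes. Glul, the astrocyte glutamine synthetase that also clears ammonia, was 2326 ± 299 CPM in AAV-VEGFC and 1885 ± 17.2 CPM in BDL (0.30 ± 0.08, adjusted p = 0.0394). Without AAV-VEGFC 1 the Glul difference was 0.19 and still called (adjusted p = 0.00995). In AAV-GFP against BDL Glul differed by as much (2326 ± 96.4 CPM in AAV-GFP, 0.30 ± 0.08, adjusted p = 0.0523), which DESeq2 (adjusted p = 0.0064) and voom (adjusted p = 0.000107) called. The 6 astrocyte markers summed to 3357 to 5400 CPM in AAV-VEGFC, 3946 to 4754 CPM in AAV-GFP and 3755 to 3895 CPM in BDL. Every AAV-GFP sum lay above every BDL sum, and edgeR called 0 of the 6 markers in either comparison. The part of astrocyte content in the Glul differences was not tested. In AAV-VEGFC against BDL, 1 of 9 tested hypothalamus markers was called, where 9.93% of all tested genes were. It was Pomc, the precursor of opioid and melanocortin peptides, which the pituitary also makes. Pomc had 3.46, 8.44 and 3.45 CPM in AAV-VEGFC brains, against 1.86, 1.49 and 1.33 CPM in BDL brains (1.72 ± 0.38, adjusted p = 0.0173). In AAV-GFP brains it had 3.09, 2.19 and 1.46 CPM, which overlapped with BDL (0.53, adjusted p = 0.475). The pituitary markers summed to 0.404, 1.60 and 55.4 CPM in AAV-VEGFC 1, 2 and 3. Of these libraries AAV-VEGFC 2 was the highest in Pomc and AAV-VEGFC 3 the highest in the pituitary sum. In BDL the sum was 0.108 to 0.213 CPM, with 5 or 6 of 7 markers at 0. The part of pituitary tissue in the Pomc difference was not tested. From the other cell-type lists, Sall3 of the olfactory bulb list fell in AAV-VEGFC against BDL (-0.57 ± 0.16, adjusted p = 0.0416), with -0.58 ± 0.16 in AAV-GFP against BDL (adjusted p = 0.0535). It was the 1 gene called of 4 tested in that list in AAV-VEGFC against BDL, where 9.93% of all tested genes were. Blood markers moved with ligation: 5 of 7 were called higher in BDL against sham, where 0.109% of all tested genes were called, among them Slc4a1, the anion exchanger of red cells (4.79 ± 0.35, adjusted p = 0.000311), and Alas2, the first enzyme of red-cell haem synthesis (2.66 ± 0.27, adjusted p = 0.00173). The 7 markers summed to 954 to 1329 CPM in AAV-VEGFC, 821 to 913 CPM in AAV-GFP, 438 to 870 CPM in BDL and 117 to 158 CPM in sham, and their part in the differences of the 9 members was not tested. The globin gene Hbb-b1, whose reads near-identical copies may share, rose in AAV-VEGFC against BDL (0.87 ± 0.23, adjusted p = 0.0353) and in BDL against sham (2.22 ± 0.24, adjusted p = 0.00228). It was the 1 of 7 blood markers called in AAV-VEGFC against BDL, where 9.93% of all tested genes were. In AAV-VEGFC against BDL, over 15 alternatives, Scg5 was called in 14, Pcsk1n and Pomc in 12 each, Glul and Hbb-b1 in 10 each, Cox6a2 in 9 and Sall3 in 8.

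For the 6 peptide and calcium-binding members, the 3 genes with the most similar course over the 12 libraries were found among 11545 genes with a mean of at least 1 CPM, by the root-mean-square difference of their centred log2 CPM. For Cck they were Acy1 (0.0622), Gabarapl1 (0.0634) and Them4 (0.0699), and for Sst they were Gap43 (0.0545), Dusp26 (0.0647) and Abat (0.0696). Genes near Pvalb included Anxa4 (0.109) and Nrep (0.127). Vip was nearest to Tmem206 (0.134), Dyx1c1 (0.143) and Cd3eap (0.146). Genes near Crh included Trim16 (0.126) and Dtx4 (0.144). The nearest to Npy, Slc52a3 (0.239), LOC100302372 (0.266) and Slc25a22 (0.285), were farther off than those of the other 5 genes. None of the neighbours named was another of the 9 members.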

How the data were processed

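Brain RNA was extracted with Trizol and made into libraries with a TruSeq kit from 200 ng, per the labels' protocols. The submitters' processing notes name FastQC, Trimmomatic 0.36, HISAT2, featureCounts and the rn6 build. The sources used here give no settings, annotation or strand of counting, so overlapping and antisense genes cannot be told apart. As deposited by the authors, the values are whole-number counts of reads for 17337 gene entries, without normalization. Unused columns of samples numbered 0.

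Groups came from the titles. The design text gives 3 rats per group, but nothing ties a library to an animal, so p-values measure the spread between libraries. Within groups, chi-square per degree of freedom between libraries was 11.6 to 227, so no libraries agreed within sampling noise.

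R 4.3.3 with edgeR 4.0.16 scaled the counts (TMM), filtered them (filterByExpr) and fitted quasi-likelihood F tests over all 12 libraries with 4 group means and Benjamini-Hochberg adjustment. Each SE is the fold change over the root of its F statistic. DESeq2 1.42.0 and limma 3.58.1 served as alternatives. CPM were computed here, log2 CPM with a prior count of 2. Ratios were tested by two-sided exact permutation. Python 3.11.15 drew the rest. The code was tested on simulated data first.

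The 9 members and 18 further gene lists were chosen with earlier results of these data known. Besides the members, the genes to name were, per list and comparison, up to 4 called genes or else the gene with the smallest p, and the 3 nearest in course to each peptide or calcium-binding gene. The text names part of these, and 2 of the nearest genes are not reported here. Alternatives were other size factors, tests, filters and sample sets, and, added after the values were seen, a striatal covariate.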

Additional observations from a re-analysis of the deposited data

How the results depend on the processing

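Of 540 fold changes of the 9 genes over all alternatives and comparisons, 476 kept their direction and their side of the threshold, 17 passed it anew with their direction kept, 8 lost it, all of Vip or Cck in AAV-VEGFC against BDL, and 39 changed sign, none of them of Vip or Cck in that comparison. Of those sign changes 2 also passed the threshold, both without AAV-VEGFC 1, AAV-GFP 1 and sham 2: Sst in AAV-GFP against BDL (adjusted p = 0.0227) and Gad1 in AAV-VEGFC against AAV-GFP (adjusted p = 0.0474). In AAV-VEGFC against BDL, the count of members called was 2 and was 1 to 2 without single libraries, 0 with both groups fitted alone and 5 without those 3 libraries. Without AAV-VEGFC 1 alone the 2 called were Pvalb and Cck, in place of Vip and Cck. In AAV-VEGFC against AAV-GFP the count was 0, and 3 without those 3 libraries. In AAV-GFP against BDL it was 0, and 1 with DESeq2, 2 with voom, 1 with both groups alone and 4 without those libraries. In BDL against sham it was 0, and 1 with voom. Calls over all genes moved as well: in AAV-GFP against BDL they were 795 in the main fit, 1435 with DESeq2, 4687 with voom and 2023 with both groups alone. The fit of both groups alone rests on fewer libraries, and the cause of these moves was not tested.

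Replicate numbers were shared by the groups, but same-numbered libraries correlated only between -0.0692 and 0.0686 in their deviations, which showed no pairing by number. Deviations from means of 3 libraries, some of which stood apart, cannot exclude a pairing. With the replicate number as a block, 2 members were called in AAV-VEGFC against BDL, Pvalb (adjusted p = 0.0404) and Cck, while Vip was at an adjusted p of 0.0572. The block called 0 members in the other comparisons.

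Signs changed without the 3 libraries for Slc32a1 in BDL against sham (0.013), for Gad1 (-0.0053), Slc32a1 (-0.060) and Sst (-0.18) in AAV-GFP against BDL, for Gad1 (0.31), Gad2 (0.31) and Slc32a1 (0.39) in AAV-VEGFC against AAV-GFP, and for Gad2 (0.025) in AAV-VEGFC against BDL. With voom they changed for Sst (-0.13) in AAV-GFP against BDL, for Gad1 (0.23), Gad2 (0.24), Slc32a1 (0.28) and Npy (0.22) in AAV-VEGFC against AAV-GFP, and for Gad2 (0.00225) in AAV-VEGFC against BDL. The striatal covariate gave -0.039 for Gad1 and -0.032 for Slc32a1 in AAV-VEGFC against BDL. Leaving out single libraries gave ranges that crossed 0 in AAV-VEGFC against BDL for Gad1 -0.13 to 0.30, Gad2 -0.35 to 0.024 and Slc32a1 -0.090 to 0.33. In AAV-VEGFC against AAV-GFP they were Gad1 -0.23 to 0.20, Gad2 -0.23 to 0.14, Slc32a1 -0.30 to 0.17, Sst -0.017 to 0.32, Npy -0.41 to 0.12 and Pvalb -0.026 to 0.24. In AAV-GFP against BDL they were Gad1 -0.0054 to 0.18, Slc32a1 -0.061 to 0.36, Sst -0.18 to 0.16, Vip -0.028 to 0.12 and Crh -0.15 to 0.24. In BDL against sham they were Slc32a1 -0.17 to 0.013 and Npy -0.36 to 0.014.

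Ratios per GABA marker that parted the groups numbered 1 in AAV-VEGFC against BDL (0 with Gad1 alone as denominator, 1 to 5 without single libraries), 0 in AAV-VEGFC against AAV-GFP (0 to 3), 0 in AAV-GFP against BDL (0 to 2) and 1 in BDL against sham (1 to 4). Npy and Crh, at 73 to 276 counts per library, are the least precisely measured of the 9.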
